A study of Mus musculus with 10 samples.

Results

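The genes described are the collagens, the lysyl oxidases and the ADAMTS proteases, taken as 3 classes of matrix gene in primary mouse hepatocytes. Members were genes on the array whose symbol is a collagen chain, Lox or Loxl1 to Loxl4, or an ADAMTS gene, each read from its brightest array feature that carried 1 symbol. This gave 66 of 16401 genes, made up of 44 collagens, 4 lysyl oxidases and 18 ADAMTS genes. Loxl2 was present only in a feature shared with other symbols and was not used.

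Hepatocytes of male C57BL6/J mice aged 10 weeks were transduced for 72 hours with adenovirus (2 to 4 plaque-forming units per cell) that expressed a short hairpin RNA, and all 6 groups carried such a virus. The hairpin was non-specific (shNS), against Wdr5 (shWDR5) or against Kat2b (shKAT2B), and cells then received PBS or 100 nM glucagon for 90 minutes. WDR5 is a core subunit of histone methyltransferase complexes, KAT2B is a histone acetyltransferase, and glucagon is a fasting hormone acting on liver cells through cyclic AMP. The comparisons address what each depletion, with or without the hormone, did to expression. RNA was measured on Affymetrix Mouse Gene arrays in 10 libraries, each pooled from 3 culture dishes. There were 2 libraries (A and B) for each arm with glucagon and for shNS with PBS, and 1 library (A) each of shWDR5 PBS and shKAT2B PBS. The labels name 1 hairpin per target, so loss of the target and any other effect of a hairpin cannot be told apart. Nothing in the labels says that libraries A and B came from separate animals, so the p-values reflect only how these libraries vary, which may be technical.

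Collagens are triple-helical proteins that give connective tissue its strength, either as fibrils (types I, III and V) or as sheet-like networks in basement membranes (type IV). Lysyl oxidases are secreted copper enzymes that oxidise lysines of collagen and elastin so that the chains become cross-linked, and ADAMTS enzymes are secreted metalloproteases that trim procollagens or cut proteoglycans such as versican and aggrecan. In liver these genes are known chiefly from hepatic stellate cells and fibroblasts, and from hepatocytes to a lesser degree.

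Kat2b lay between 6.60 and 6.93 on the log2(intensity + 1) scale in the shKAT2B libraries and between 9.40 and 9.59 in the others, and Wdr5 lay between 8.19 and 8.40 in the shWDR5 libraries and between 9.98 and 10.07 in the others, so both targets matched their labels. Arrays have no read depth and the number of libraries limits the precision; median intensity was 282.1 to 298.2. The libraries also fell into 2 sets that arm and treatment do not account for, separated by a component holding 78 percent of the variance left by the additive model. Set 1 is library A of the 4 groups that have both letters, and set 2 is the other 6 libraries, 1 of each group, so set 1 holds 3 of 6 glucagon libraries and 1 of 4 PBS libraries. Of 11 hepatocyte markers on the array, 10 passed the filter on low values and Cyp2e1 (6.62 to 6.98) did not, with a summed level of 15.43 to 15.73 in set 1 and 15.43 to 15.86 in set 2. Markers of stellate cells and fibroblasts were also present (12 of 17 tested, summed level 14.54 to 14.63 in set 1 and 14.36 to 14.45 in set 2), a sum made up mostly by Vim (13.84 to 14.02), which other mesenchymal cells also express, and by Acta2 (11.55 to 12.30). The more specific Pdgfra (7.04 to 7.47), Pdgfrb (7.32 to 7.88) and Lrat (6.70 to 7.80) lay near the filter level of 7.13, and Reln, Hand2, Rgs5, Gli1 and Tcf21 did not pass the filter. Endothelial markers summed to 12.22 to 12.41 in set 1 and 12.54 to 12.96 in set 2, Kupffer cell and leukocyte markers to 12.82 to 13.17 and 13.40 to 13.90, and cholangiocyte markers to 11.98 to 12.31 and 11.34 to 12.02.

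Across the 3 classes, few members moved with the hormone or the hairpins, and those that did were single genes. Genes in the lowest 30 percent by mean level were left out of the tests, which kept 41 members (28 collagens, 3 lysyl oxidases and 10 ADAMTS genes) among 11480 genes. A gene was called at a limma adjusted p below 0.05 over all genes tested, and values after ± are the model's standard errors. Fits with the library letter as a block or the library set as a term are given beside it as descriptions. Their p-values are not support for a call. Glucagon against PBS, shared by the 3 arms, called 1 of 41 members (Adamts1, higher), where 0.923 percent of all tested genes were called and 0.679 percent were called higher. shWDR5 against shNS called 0 of 41 members against 10.9 percent of all genes, and 1 member had an unadjusted p below 0.05. shKAT2B against shNS called 1 member (Lox, lower) against 15.6 percent (8.95 percent lower), and shKAT2B against shWDR5 called 2 (Lox, lower, and Loxl4, higher) against 22.7 percent (11.5 percent lower and 11.2 percent higher). These comparisons share libraries, the depletion comparisons their shNS controls, so their values are given side by side and not as independent results.

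**Figure D1:**
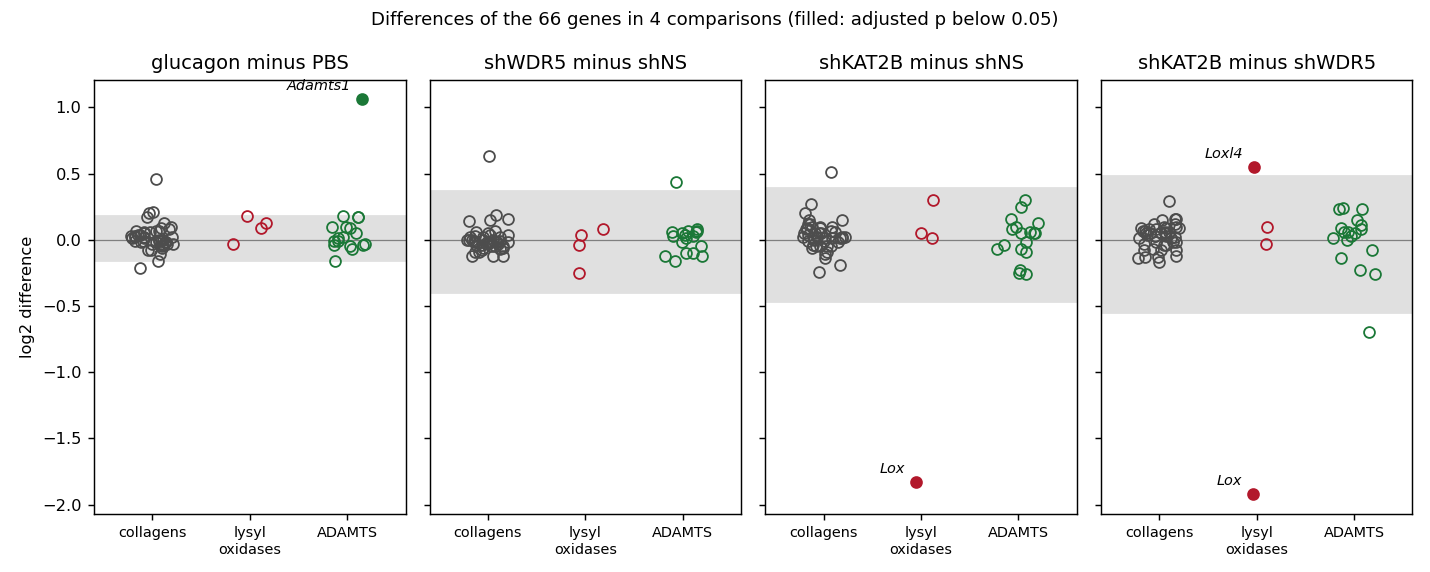
Fitted log2 difference (y axis) of each of the 66 genes by class (x axis) in 4 comparisons; filled points passed an adjusted p below 0.05, open points did not or lay below the filter (taken from the fit with no filter), and the grey band spans the 5th to 95th percentile of all tested genes. The points outside the band by the widest margin are Adamts1 under glucagon (1.06) and Lox in shKAT2B (-1.83 against shNS, -1.92 against shWDR5).

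Class medians stayed near 0 in the fitted differences. For the collagens the median log2 difference was 0.05 for glucagon, -0.02 for shWDR5, 0.02 for shKAT2B and 0.04 between the hairpins. For the lysyl oxidases the same medians were 0.13, -0.04, 0.05 and 0.10, and for the ADAMTS genes 0.07, 0.04, 0.05 and 0.04. All tested genes had medians of 0.01, -0.01, 0.01 and 0.02. With the library set as a term the lysyl oxidase median for glucagon was -0.02. Over the 6 group means, the widest departures from shNS PBS were Lox in shKAT2B PBS (-2.27) among the lysyl oxidases, Adamts1 in shNS glucagon (1.27) among the ADAMTS genes, and Col12a1 in shKAT2B PBS (-0.51) among the collagens. The shKAT2B PBS library lies in set 2 while the shNS PBS mean spans both sets; within set 2 these differences were -2.03 for Lox and -0.19 for Col12a1, the latter smaller than that of Col8a1 (0.43).

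The collagens showed no called change. None of the 28 tested collagens was called by limma in any of the 4 comparisons; with an unadjusted p below 0.05 there was 1 for glucagon (Col12a1), 1 for shWDR5 (Col4a2), 0 for shKAT2B and 0 between the hairpins. All 28 differed by less than 0.3 on the log2 scale in the 3 comparisons of hairpins, and 27 of 28 did so under glucagon. Of all 11480 tested genes, 9548 did so for shWDR5, 9254 for shKAT2B, 8494 between the hairpins and 11176 under glucagon. Fitted differences ran from -0.11 to 0.46 for glucagon, from -0.12 to 0.19 for shWDR5 and from -0.24 to 0.27 for shKAT2B.

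Col12a1 encodes a collagen that decorates the surface of type I fibrils. Its levels were 9.92 and 9.27 in shNS PBS, 10.12 and 9.62 in shNS glucagon, 9.37 in shWDR5 PBS, 10.10 and 9.61 in shWDR5 glucagon, 9.08 in shKAT2B PBS, and 10.14 and 9.48 in shKAT2B glucagon (libraries A then B where there were 2). Within each arm and set the glucagon library was the higher one, while over all libraries the PBS and glucagon groups overlapped. The shared difference was 0.46 ± 0.19 (adjusted p = 0.941). With the library letter as a block it was 0.60 (adjusted p = 0.0194), above each within-set difference. That block places the lone shWDR5 and shKAT2B PBS libraries, labelled A, with set 1, although they lie in set 2. With the library set as a term the difference was 0.30 (adjusted p = 0.00511). The within-set differences were 0.20 and 0.35 in shNS, 0.24 in shWDR5 and 0.40 in shKAT2B.

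Col1a1 and Col1a2 encode the chains of type I collagen, the main fibrillar collagen of scar tissue. Col1a1 measured 8.83 and 8.32 in shNS PBS, 8.87 and 8.39 in shNS glucagon, 8.41 in shWDR5 PBS, 9.01 and 8.44 in shWDR5 glucagon, 8.69 in shKAT2B PBS, and 9.36 and 8.67 in shKAT2B glucagon. Each shKAT2B library lay above the shNS library of its set and treatment, by 0.37, 0.49 and 0.28, but the groups overlapped because set 1 (8.83 to 9.36) lay above set 2 (8.32 to 8.69). The shKAT2B difference was 0.27 ± 0.22 (adjusted p = 0.474) and was not called. With the library set as a term it was 0.39 (adjusted p = 0.000165). The sets were read from the residuals of these same libraries, so that value is a description. Col1a2 ran from 7.76 in shNS PBS B to 8.77 in shKAT2B glucagon A, with a shKAT2B difference of 0.15 that became 0.29 with the set as a term (adjusted p = 0.00341). Col5a2, a fibril-initiating chain whose gene neighbours Col3a1, differed by 0.12, or 0.21 with the set as a term (adjusted p = 0.0327). Leaving out shKAT2B glucagon A turned the sign of both Col1a2 and Col5a2 to -0.05, and leaving out shNS glucagon B took them to 0.00 and -0.01. In the same fit with the set as a term, 3 of 12 tested stellate and fibroblast markers were called higher in shKAT2B (Des 0.33, Pdgfra 0.24 and Pdgfrb 0.24). That fit called 2 lower (Tagln -0.43 and Thy1 -0.29). Of all 11480 tested genes it called 2464 higher and 2302 lower, 41.5 percent in total. The part of these cells in the collagen values was not tested.

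Type IV collagen genes Col4a1 and Col4a2, which encode the common basement membrane chains, lie head to head. Their starts are 21 bases apart in the RefSeq annotation. Col4a1 measured 8.65 and 8.58 in shNS PBS, 8.54 and 8.55 in shNS glucagon, 8.68 in shWDR5 PBS, 8.80 and 8.69 in shWDR5 glucagon, 8.52 in shKAT2B PBS, and 8.63 and 8.62 in shKAT2B glucagon. Col4a2 measured 8.37 and 8.25, 8.39 and 8.34, 8.47, 8.68 and 8.47, 8.30, and 8.42 and 8.40 in the same order. All shWDR5 libraries lay above all shNS libraries for both genes, and these were the 2 of 41 members whose shWDR5 and shNS libraries did not overlap, against 24.2 percent of all tested genes. The differences were small and not called, at 0.14 ± 0.07 for Col4a1 (adjusted p = 0.253) and 0.19 ± 0.07 for Col4a2 (adjusted p = 0.151; 0.0143 with the set as a term). shKAT2B differed from shNS by 0.01 ± 0.07 and 0.02 ± 0.07. For shKAT2B and shNS, 5 of 41 members did not overlap against 26.6 percent of all tested genes, namely Col22a1, Col2a1 and Loxl4 on the high side and Col26a1 and Lox on the low side.

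Col8a1, a short-chain network collagen of vessel walls, lay below the filter and is named because its libraries stood apart once all 16401 genes were fitted. Its levels were 6.69 and 6.67 in shNS PBS, 6.19 and 6.46 in shNS glucagon, 7.11 in shWDR5 PBS, 6.97 and 7.20 in shWDR5 glucagon, 7.10 in shKAT2B PBS, and 6.93 and 6.90 in shKAT2B glucagon. Each library with a depletion hairpin lay above each shNS library. In the fit with no filter Col8a1 was higher by 0.63 ± 0.10 in shWDR5 (1.54-fold, adjusted p = 0.00831; 6.62 percent of genes called) and by 0.51 ± 0.10 in shKAT2B (1.42-fold, adjusted p = 0.0112; 10.9 percent called), both measured against the same 4 shNS libraries. Without shKAT2B PBS A the latter value was 0.53 with an adjusted p of 0.0761. The sources used here do not say whether levels this low exceed the array's background. The other 24 members below the filter did not pass in that fit.

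**Figure D2:**
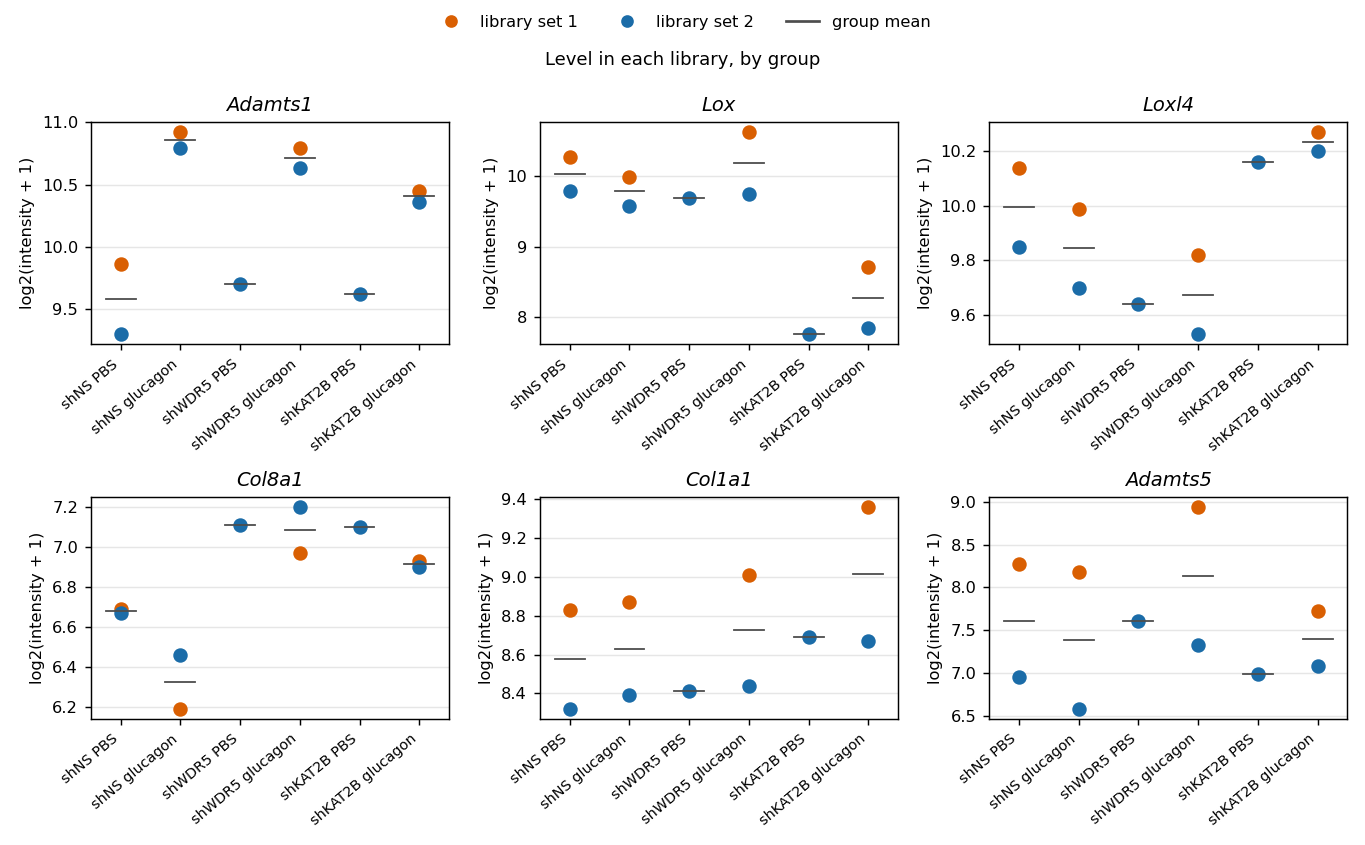
Level of 6 members (y axes, log2(intensity + 1), each panel with its own range) in the 6 groups (x axes); each point is a library coloured by library set, and bars are group means, which for shWDR5 PBS and shKAT2B PBS rest on 1 library. Adamts1 separates by glucagon (at most 9.86 with PBS, at least 10.36 with glucagon), Lox by shKAT2B (at most 8.71), and Adamts5 by library set.

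Lysyl oxidases held the widest fitted difference of the 3 classes. Lox, the founding member of the family, was 3.56-fold lower in shKAT2B than in shNS, and Loxl4 was 1.46-fold higher in shKAT2B than in shWDR5. Loxl3 passed the filter narrowly (mean 7.18 against a filter level of 7.13) and Loxl1 (6.39 to 6.84) did not; neither was called.

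Lox measured 10.27 and 9.79 in shNS PBS, 9.99 and 9.57 in shNS glucagon, 9.69 in shWDR5 PBS, 10.62 and 9.75 in shWDR5 glucagon, 7.76 in shKAT2B PBS, and 8.71 and 7.85 in shKAT2B glucagon. The 3 shKAT2B libraries (7.76 to 8.71) lay below all 7 others (9.57 to 10.62), and within each group of 2 libraries the library of set 1 was the higher. The fitted difference was -1.83 ± 0.30 against shNS (adjusted p = 0.00397) and -1.92 ± 0.31 against shWDR5, 3.77-fold (adjusted p = 0.00287). Within sets, shKAT2B lay below shNS by -2.03 with PBS and by -1.28 and -1.73 with glucagon. In RNA of whole cultures, fewer cells of a type and less RNA per cell cannot be told apart. The stellate and fibroblast markers summed to 14.37 to 14.54 in the shKAT2B libraries and 14.43 to 14.63 in the shNS libraries. Of 12 tested, 2 were called lower (Tagln by -0.45 and Thy1 by -0.29) and none higher, with a list median of -0.03. Of all tested genes 8.95 percent were called lower and 6.66 percent higher. Those not called went both ways. Pdgfra lay higher in shKAT2B (7.26 to 7.47) than in shNS (7.04 to 7.22), where 26.6 percent of all tested genes did not overlap. Lrat leaned lower with overlap (6.70 to 7.21 in shKAT2B, 6.99 to 7.44 in shNS). With the set as a term 3 of the 12 stellate and fibroblast markers were called higher and 2 lower. That fit called 2464 of all 11480 tested genes higher and 2302 lower. Of 10 tested hepatocyte markers 5 were called lower in shKAT2B, among them Apoa2 (-1.02) and Ttr (-0.91), where 8.95 percent of all tested genes were called lower. Of 14 endothelial markers 2 were called higher (Flt1 by 0.39 and Eng by 0.48), where 6.66 percent of all tested genes were called higher. Of 4 cholangiocyte markers 1 was called lower (Krt7, by -0.44), against the same 8.95 percent of all tested genes. Kupffer cell and leukocyte markers had the highest list median of these cell types, 0.47, with 0 of 12 called against 15.6 percent of all tested genes. With the set as a term that median was 0.33 and 7 of the 12 were called higher, where 2464 of all 11480 tested genes were called higher. The part of these cell types in the Lox value was not tested.

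Lox did not pass the test for shWDR5 against shNS (0.08 ± 0.30, adjusted p = 0.9) or for glucagon (0.18 ± 0.25, adjusted p = 0.962). With the set as a term the glucagon value was -0.02. Within sets the glucagon difference was -0.28 and -0.22 in shNS, 0.06 in shWDR5 and 0.09 in shKAT2B. Over the 10 libraries the genes most like Lox were Ptar1 (Pearson r = 0.993), Maoa (0.990), Armt1 (0.986), Pir (0.984) and Lsg1 (0.984), a description over libraries that share arms and sets. The member most like it was Adamts6 (r = 0.69).

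Loxl4 measured 10.14 and 9.85 in shNS PBS, 9.99 and 9.70 in shNS glucagon, 9.64 in shWDR5 PBS, 9.82 and 9.53 in shWDR5 glucagon, 10.16 in shKAT2B PBS, and 10.27 and 10.20 in shKAT2B glucagon. The shKAT2B libraries lay above every other library, and the shWDR5 libraries overlapped those of shNS. Between the hairpins the difference was 0.55 ± 0.12 (adjusted p = 0.0109); without shWDR5 PBS A it was 0.51 with an adjusted p of 0.0591. Against shNS, shKAT2B differed by 0.30 ± 0.11 (adjusted p = 0.116) and shWDR5 by -0.25 ± 0.11 (adjusted p = 0.199). The letter block gave 0.25 (adjusted p = 0.0466) and -0.29 (adjusted p = 0.0299), and quantile normalization gave 0.32 for shKAT2B (adjusted p = 0.0268). The gene's dimmer feature differed less, by 0.08 for shKAT2B, -0.11 for shWDR5 and 0.19 between the hairpins.

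Of the 10 tested ADAMTS genes, 1 was called for glucagon. Adamts1, a versican- and aggrecan-cleaving protease, was 2.08-fold higher with glucagon. The 250 bases before the start of Adamts1 (RefSeq, GRCm38.p6, chr16:85803114-85803363, minus strand) are shown because glucagon acts through cyclic AMP and the window holds a half-site of the cyclic AMP response element, TGACG; those of Loxl4 (chr19:42612807-42613056, minus strand) hold the same letters on the opposite strand and belong to a member not called for glucagon. Capitals mark the half-site.
Adamts1: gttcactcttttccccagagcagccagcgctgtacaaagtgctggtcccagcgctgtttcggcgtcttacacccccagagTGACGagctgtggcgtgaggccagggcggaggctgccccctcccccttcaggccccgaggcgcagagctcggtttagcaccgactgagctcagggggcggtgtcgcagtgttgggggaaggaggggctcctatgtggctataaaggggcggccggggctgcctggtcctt
Loxl4: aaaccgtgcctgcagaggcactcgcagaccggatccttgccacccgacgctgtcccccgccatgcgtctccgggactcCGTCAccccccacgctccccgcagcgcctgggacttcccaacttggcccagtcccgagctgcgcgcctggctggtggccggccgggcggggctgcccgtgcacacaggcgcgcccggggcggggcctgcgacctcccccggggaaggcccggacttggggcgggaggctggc

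The half-site starts 170 bases before the start of Adamts1 and 172 bases before that of Loxl4. Searched on both strands, TGACG was found in 9 of the 45 members with a promoter in the table (20 percent) and in 19.8 percent of all 27025 promoters; by class it was in 4 of 9 ADAMTS genes, 4 of 35 collagens and the 1 lysyl oxidase listed. The full palindrome TGACGTCA, which contains the half-site, was in 0 of 45 members and 1.77 percent of all promoters. A match is a description of letters in this window and not evidence of binding.

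Adamts1 measured 9.86 and 9.30 in shNS PBS, 10.92 and 10.79 in shNS glucagon, 9.70 in shWDR5 PBS, 10.79 and 10.63 in shWDR5 glucagon, 9.62 in shKAT2B PBS, and 10.45 and 10.36 in shKAT2B glucagon. All 6 glucagon libraries (10.36 to 10.92) lay above all 4 PBS libraries (9.30 to 9.86). The shared difference was 1.06 ± 0.12 (adjusted p = 0.00376). Within sets, the rise was 1.06 and 1.49 in shNS, 0.93 in shWDR5 and 0.74 in shKAT2B. In shNS alone the difference was 1.27 ± 0.18 and missed the threshold in limma (adjusted p = 0.0764). In that comparison 0 of 41 members were called, 1 had an unadjusted p below 0.05, and 0.192 percent of all genes were called. For this comparison the letter block and the set as a term are the same fit and count once. That fit called it (adjusted p = 2.56e-05), with 1 of 41 members and 1.93 percent of all genes called. Quantile normalization also called it (adjusted p = 0.037). Leaving out each library in turn gave differences of 0.99 to 1.55.

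In the glucagon libraries Adamts1 was lower in shKAT2B than in shNS, by -0.47 in set 1 and -0.43 in set 2, whereas with PBS in set 2 it was higher by 0.32. Over both treatments the shKAT2B difference was -0.25 ± 0.14 (adjusted p = 0.296), -0.31 with the letter block (adjusted p = 0.0412) and -0.38 without shNS PBS B (adjusted p = 0.0249). The test of whether the glucagon response itself differed gave -0.49 ± 0.29 for shKAT2B (adjusted p = 0.999) and -0.26 ± 0.29 for shWDR5 (adjusted p = 1.0), and neither was called. The genes most like Adamts1 over the 10 libraries were Irs2 (r = 0.984), Pde4d (0.979), Nr4a3 (0.974), Cep85l (0.973) and Rasgef1b (0.969).

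Adamts5, an aggrecanase whose gene neighbours Adamts1 on chromosome 16, did not follow it. Its levels were 8.27 and 6.95 in shNS PBS, 8.18 and 6.58 in shNS glucagon, 7.61 in shWDR5 PBS, 8.94 and 7.33 in shWDR5 glucagon, 6.99 in shKAT2B PBS, and 7.72 and 7.08 in shKAT2B glucagon. Set 1 (7.72 to 8.94) lay wholly above set 2 (6.58 to 7.61), whereas PBS and glucagon libraries overlapped. Glucagon gave 0.17 ± 0.43 (adjusted p = 0.964) and shWDR5 0.44 ± 0.51 (adjusted p = 0.653). Each shWDR5 library was above the shNS library of its set and treatment, by 0.66, 0.77 and 0.75, and the fit with the set as a term gave 0.72 (adjusted p = 0.00143). Leaving out shNS glucagon B or shWDR5 glucagon A took the value without that term to -0.01 and -0.03.

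Adamts3, a procollagen N-propeptidase, was read by 11 array features. At its brightest feature the levels were 7.68 and 7.86 in shNS PBS, 7.65 and 8.04 in shNS glucagon, 7.88 in shWDR5 PBS, 7.65 and 8.08 in shWDR5 glucagon, 8.19 in shKAT2B PBS, and 7.96 and 8.15 in shKAT2B glucagon. The shKAT2B libraries were high but overlapped shNS glucagon B. The difference was 0.30 ± 0.13 (adjusted p = 0.18), 0.35 with the letter block (adjusted p = 0.0182) and 0.23 with the set as a term (adjusted p = 0.0166). All 11 features gave a higher mean in shKAT2B than in shNS, by 0.17 to 0.59, and all 11 a higher mean than in shWDR5; the features read the same RNA and are not replicates. Of these features 10 had means of 5.68 to 7.06, below the filter level of 7.13, and the largest differences (0.59 and 0.49) came from such features.

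**Figure D3:**
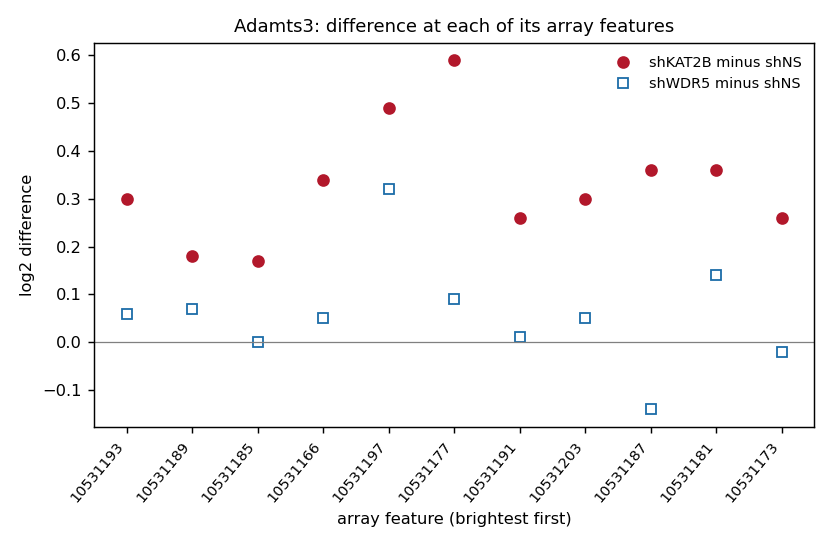
Difference in mean log2 level (y axis) at each of the 11 array features of Adamts3 (x axis, brightest at the left), for shKAT2B minus shNS (filled circles) and shWDR5 minus shNS (open squares). The circles lie between 0.17 and 0.59, while the squares lie on both sides of 0; all features but the brightest have means below the filter level of 7.13.

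Adamts7, a protease of cartilage oligomeric matrix protein, ran from 8.89 to 9.14 in shNS, 8.92 to 9.04 in shWDR5 and 9.08 to 9.41 in shKAT2B. Its shKAT2B difference was 0.25 ± 0.09 against shNS (adjusted p = 0.12; 0.0452 with quantile normalization) and 0.24 ± 0.10 against shWDR5 (adjusted p = 0.12; 0.0391 with the letter block). Adamts9, which had the only other unadjusted p below 0.05 for glucagon in the class, differed by -0.16 ± 0.06 (adjusted p = 0.749). Adamts17 (8.94 to 9.30) and Adamts10 (8.13 to 8.68), the other bright members, were not called in any of the 4 comparisons.

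Some members also differed between the library sets, among them the fibrillar chains Col1a1, Col1a2 and Col5a2, whose sets did not overlap. The sets of Col3a1 overlapped (8.14 to 8.32 in set 1, 7.99 to 8.18 in set 2), with a gap (set 2 minus set 1) of -0.16. In each of the 4 groups with both letters its set 1 library was the higher. Those of Col5a1 also overlapped (7.58 to 7.66 and 7.49 to 7.74), with a gap of 0.00. Of 41 tested members, 12 did not overlap between the sets, against 19.4 percent of all tested genes. Higher in set 1 were Adamts5, Adamts6, Adamts10, Col12a1, Col18a1, Col1a1, Col1a2, Col4a5, Col5a2 and Loxl3, and lower were Adamts4 and Col9a2. Among these 12 the widest gaps were -1.29 (set 2 minus set 1) for Adamts5, -0.67 for Col1a2, -0.57 for Col12a1 and -0.56 for Col1a1, and Lox, whose sets overlap, had a gap of -0.66. The collagens had a median gap of 0.01. Over the 10 libraries Col1a1 was most like Col1a2 and Col5a2 among members (r = 0.95 each), a likeness carried by points that share these sets. The stellate marker Des also lay higher in set 1, at 8.07 to 8.44 against 7.36 to 7.94; its part in the collagen values was not tested.

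**Figure D4:**
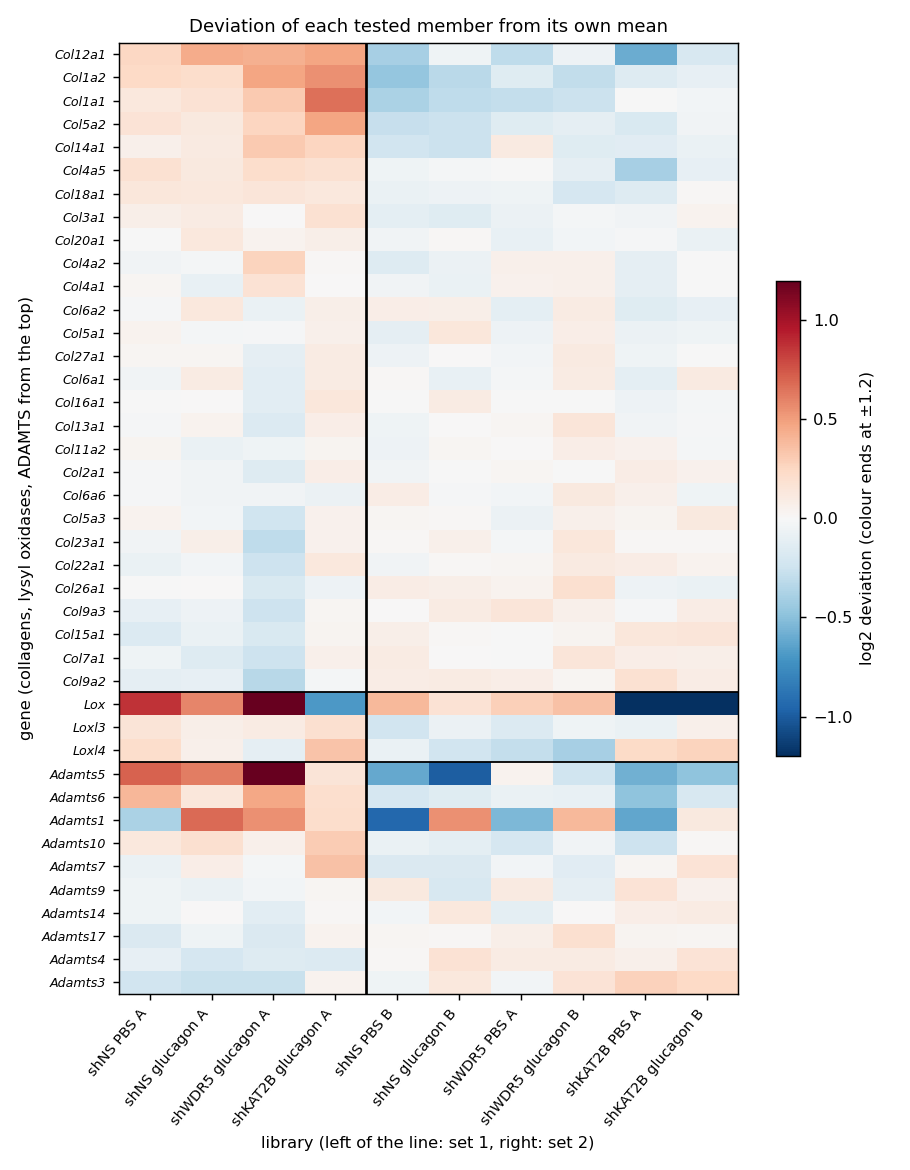
Deviation (colour, log2) of each of the 41 tested members (rows, by class) from its own mean over the 10 libraries (columns, set 1 left of the line and set 2 right); colours end at 1.2 in either direction. Col12a1, Col1a2 and Col1a1 at the top change with the set, Lox is low in the 3 shKAT2B columns, and Adamts1 is high in the glucagon columns.

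Counts of called members were higher once the library letter or set entered the fit, as they did over all genes. With the letter as a block the calls were 2 of 41 for glucagon (2.5 percent of all genes), 1 for shWDR5 (26.7 percent), 4 for shKAT2B (29.6 percent) and 3 between the hairpins (36.1 percent). With the set as a term they were 2 (3.35 percent), 5 (36.8 percent), 7 (41.5 percent) and 8 (50.4 percent). The sets were read from the residuals of these libraries, so p-values from that fit describe and do not support a call.

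No member's response to glucagon was called as different in shWDR5 or shKAT2B from shNS (0 of 41 in each, 0 percent of all genes, and 0 members with an unadjusted p below 0.05 in limma). With the letter block 4 members were called for shWDR5 (Lox, Adamts5, Col12a1 and Col1a1; 4.75 percent of all genes) and 9 for shKAT2B (Lox, Adamts5, Adamts6, Adamts10, Col12a1, Col1a1, Col1a2, Col4a5 and Col5a2; 12.1 percent). That block pairs the lone PBS libraries, labelled A, with set 1. Their profiles lay closer to glucagon library B of their own arm, with r = 0.9956 against 0.9824 for shWDR5 and 0.9958 against 0.9757 for shKAT2B. With the set as a term 0 members were called in either test, and 0 and 0.0174 percent of all genes.

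Lists of genes that build, anchor or degrade collagen were read against the shares called over all tested genes, which were 0.923 percent for glucagon, 10.9 percent for shWDR5, 15.6 percent for shKAT2B and 22.7 percent between the hairpins. At these list sizes the counts are descriptions and mark out no list. Of 19 tested genes of collagen biosynthesis and processing, 2 were called higher in shWDR5 (Plod2, a lysyl hydroxylase, by 0.56 ± 0.12, and P3h1, a prolyl hydroxylase, by 0.35 ± 0.08). In shKAT2B the same 2 rose, Plod2 by 0.81 ± 0.12 (adjusted p = 0.00317) and P3h1 by 0.28 ± 0.08, and Ctage5, which helps export procollagen, fell by 0.39 ± 0.07. List medians were 0.08, 0.05 and 0.12 for glucagon, shWDR5 and shKAT2B. Of 7 tested collagen-degrading proteases and inhibitors, Reck, a metalloprotease inhibitor, rose in shWDR5 (0.59 ± 0.09) and Mmp13, a collagenase, rose in shKAT2B (0.63 ± 0.16).

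Among 8 tested ADAMTS-like proteins, substrates and partners, Furin, the convertase that activates ADAMTS proenzymes, fell in shWDR5 (-0.37 ± 0.09) and in shKAT2B (-0.42 ± 0.09), and Thbs1 rose in shWDR5 (0.45 ± 0.09). Adamtsl4 and Adamtsl5, which lack protease activity, were higher in shKAT2B than in shWDR5 by 0.32 ± 0.10 each. Of 17 tested elastic fibre and fibril-associated genes, Tnc, a matrix glycoprotein, rose in both depletions (0.80 ± 0.14 and 0.82 ± 0.14), Lamc1, a laminin chain, rose in shWDR5 (0.37 ± 0.08), and Fbln2, an elastic fibre protein, fell in shKAT2B (-0.95 ± 0.22), which made 2 of 17 called in each depletion. Between the hairpins Fbln2 (-1.04 ± 0.24) and Lamc1 (-0.39 ± 0.08) were lower in shKAT2B.

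Of 15 tested collagen receptors and TGF-beta genes, glucagon called 1, the receptor gene Tgfbr1, higher by 1.24 ± 0.13 (adjusted p = 0.00203). In shWDR5 the receptor gene Tgfbr2 rose by 0.45 ± 0.06. In shKAT2B the integrin gene Itga2 rose by 0.88 ± 0.14, while Tgfbr1 fell by 0.60 ± 0.15 and Itgb1 by 0.22 ± 0.05. Between the hairpins 5 of the 15 were called, with Tgfb1 (0.72 ± 0.20) and Itga2 (0.48 ± 0.14) higher in shKAT2B and Tgfbr1 (-0.67 ± 0.16), Tgfbr2 (-0.26 ± 0.06) and Itgb1 (-0.22 ± 0.06) lower. The list medians for glucagon, shWDR5 and shKAT2B were 0.06, -0.01 and 0.00.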

How the data were processed

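Per the submitters' processing notes the arrays were processed in Affymetrix Expression Console 1.1.1; the sources used here name no normalization method. The deposited table holds intensity on a linear scale (4.47 to 22694) for 26913 features, of which 17873 carried 1 gene symbol, 1128 several and 7912 none; all 66 members matched RefSeq by gene identifier. Values were taken as log2(intensity + 1), so fold changes are on that scale, and 11480 genes remained after the filter.

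The tests used limma 3.58.1 (lmFit and eBayes, mean-variance trend on) under R 4.3.3, two-sided, with Benjamini-Hochberg adjustment over all tested genes. An additive model of arm and treatment (6 residual degrees of freedom) gave the glucagon and hairpin differences, and a model of the 6 groups (4 residual degrees of freedom) gave glucagon in shNS and the interactions. Groups with 1 library were assumed to vary like the others. The library letters pair the 4 groups that hold both (correlation of B minus A 0.721 to 0.844 over genes, as read from the data); the lone PBS libraries lay closer to library B. Set membership is the sign of the first residual component.

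Genes named were called members, otherwise up to 5 per comparison with the smallest p, Lox and Adamts1 throughout, all lysyl oxidases, the brightest 5 collagens and ADAMTS genes, the head-to-head pair and up to 4 called genes per list; Adamts6, Col14a1, Col1a2, Col5a2 and Col8a1, set or block calls and non-overlapping members were named after their values were seen. The members and lists were chosen with earlier results of these data known. Promoters are from RefSeq. Tables were made with pandas 2.3.3 and numpy 2.4.6, and figures with matplotlib 3.10.9, in Python 3.11.15. The fit was tested on simulated data with independent noise in each gene and library. That simulation had no component shared by libraries, so it does not show how the fit behaves with the library sets. Alternatives were other normalizations, filters, pseudocount 16, mean of features, no trend, the letter block, the set, set 2 alone and leaving out each library.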

Additional observations from a re-analysis of the deposited data

Results flagged for a closer look

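Col4a1 had differences of opposite sign between groups, all of them small. Its glucagon difference was -0.07 in shNS, where both glucagon libraries lay below both PBS libraries, but 0.06 in shWDR5 and 0.10 in shKAT2B, where the glucagon libraries lay above the PBS library. Within set 2 the glucagon differences were -0.03 in shNS, 0.01 in shWDR5 and 0.10 in shKAT2B. Its shKAT2B difference was -0.09 with PBS and 0.08 with glucagon, or -0.06 and 0.07 within set 2. The opposite signs themselves were not tested. The interaction terms of the limma fit were 0.13 ± 0.16 for shWDR5 and 0.17 ± 0.16 for shKAT2B, and neither was called. The glucagon difference in shNS had a standard error of 0.10.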

How the results depend on the processing

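The calls of Adamts1 for glucagon (0.93 to 1.17), of Lox in shKAT2B against shNS (-2.11 to -1.65) and of Lox against shWDR5 (-2.21 to -1.63) held when each library was left out in turn and under the other settings in which they were fitted. Counts of called members moved as follows. With the replicate letter as a block they were 2 for glucagon, 1 for shWDR5, 4 for shKAT2B, 1 for glucagon in shNS, and 4 and 9 for the shWDR5 and shKAT2B interactions. With the library set as a term they were 2 for glucagon, 5 for shWDR5, 7 for shKAT2B, 8 between the hairpins and 1 for glucagon in shNS. For glucagon in shNS the letter block and the set term are the same fit. In set 2 alone, where no group is replicated, they were 2, 1, 5 and 6 for glucagon, shWDR5, shKAT2B and between the hairpins. Quantile normalization gave 3 for shKAT2B and 1 for glucagon in shNS, median centring 2 and 1, and no filter on low values 1 for shWDR5 and 2 for shKAT2B. Leaving out each library gave 1 to 2 calls for shKAT2B (2 without shNS PBS B), 1 to 2 between the hairpins (1 without shWDR5 PBS A) and 0 to 1 for glucagon in shNS (1 without shNS PBS A). Pseudocount 16, no trend, the mean of features and a stricter filter kept each count within 1.5 times.

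Signs turned for values that were not called. The block turned Col1a2 in shWDR5 to -0.07. Leaving out 1 library gave ranges of -0.14 to 0.25 for Col1a2 and -0.03 to 0.78 for Adamts5 in shWDR5, -0.05 to 0.29 for Col1a2 and -0.05 to 0.24 for Col5a2 in shKAT2B, and -0.54 to 0.01 for the shWDR5 interaction of Adamts1. The causes were not tested. The sources used here give no signal over background, which limits statements on members near or below the filter.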

Other observations

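Promoter motifs other than the half-site, searched on both strands of the 250 bases before each start, were near their background among members. The hypoxia-inducible factor core ACGTG was in 9 of 45 members (20 percent) and 18.5 percent of all promoters, and the TEAD core GGAATG in 5 of 45 (11.1 percent) and 14.4 percent. No match says only that these letters are not in this window.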
